A study of Mus musculus with 6 samples.

Results

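The genes described here are the mouse zinc finger genes named Zfp followed by digits only, without Zfp36, that had a deposited count of 20 or more in at least 4 of the 6 libraries. These are 186 of 335 such Zfp genes, among 22564 genes in the table. They were chosen by these counts, so their presence in the libraries is no finding. The libraries come from RNA immunoprecipitation (RIP-seq), in which a protein is pulled down with an antibody and its bound RNA is sequenced. There were 3 groups of 2 libraries: RIP with an antibody to IGF2BP1, RIP with a non-specific IgG, and the input RNA taken without a pull-down. All 3 groups were cultured mouse germ stem cells grown with the growth factors GDNF and FGF2 (10 ng/ml of each), and the labels name no genotype, strain or other treatment. Whether replicates are separate cultures is not stated, so each p-value measures the spread between these libraries, which may be technical.

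Zfp genes mostly encode proteins with arrays of C2H2 zinc fingers, each finger a short fold held by a zinc ion that can read a few bases of DNA. Many carry a KRAB domain, which binds the co-repressor TRIM28 (KAP1). TRIM28 in turn brings the histone methyltransferase SETDB1 and heterochromatin proteins to retroelements and imprinted regions. The genes lie in tandem clusters that grew by duplication, so neighbours are often close in sequence. IGF2BP1 is an RNA-binding protein that binds target mRNAs and is known for stabilising them, and the study asks about its part in spermatogenesis.

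Of the 186 genes, 150 reached a count of 20 in all 6 libraries, 18 in 5 and 18 in exactly 4. Just outside the threshold lie 21 Zfp genes that reached it in 3 libraries. The input libraries were shallower, and this shapes the edge of the set: of the 18 genes with exactly 4 libraries, 11 had neither input library at 20 and none lacked both IGF2BP1 RIP libraries. Zfp57, just inside, had deposited counts of 37.8 and 37.4 with the IGF2BP1 antibody, 20.5 and 42.0 with IgG, and 17.3 and 13.6 for input. Zfp592, just outside, had 43.9 and 35.4 with the IGF2BP1 antibody, 42.1 and 14.3 with IgG, and 7.12 and 16.6 for input. All 186 genes passed the filter on low counts of the test. Another 90 of the 149 Zfp genes below the threshold passed it too, and 7 Zfp genes had no fragment in any library.

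The IGF2BP1 RIP libraries held 2793425 and 2836942 fragments, the IgG RIP libraries 2558673 and 2723451, and the input libraries 1639251 and 1693165. All 14 germ stem cell markers checked (among them Gfra1, Ret, Etv5 and Ddx4) were detected, with summed levels of 3720 to 3782 CPM (fragments scaled to an equal library size) in IGF2BP1 RIP, 3260 to 3345 in IgG RIP and 3561 to 3681 in input. Markers of other cells were present as well. The 8 fibroblast markers summed to 3929 to 4119 CPM in IGF2BP1 RIP, 3777 to 4370 in IgG RIP and 3699 to 3764 in input. The 7 macrophage markers in the table summed to 3322 to 3445 CPM in IGF2BP1 RIP, 2929 to 3464 in IgG RIP and 3522 to 3547 in input, most of it Lyz2. The 8 Sertoli and Leydig markers summed to 41.6 to 43.8 CPM in IGF2BP1 RIP, 51.6 to 56.7 in IgG RIP and 35.5 to 48.4 in input, with Amh and Cyp11a1 at 0. The IgG RIP libraries stood apart from the others, because they differed from each other far more: the biological coefficient of variation over all genes was 50.4% in IgG RIP, against 7.76% in IGF2BP1 RIP and 6.76% in input. The part of other cells in the results below was not tested, and in bulk RNA fewer cells of a type and less RNA per cell cannot be told apart.

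As a whole, the Zfp genes took a similar small share of every library. Their share of the fragments was 1.11% and 1.12% with the IGF2BP1 antibody, 1.16% and 1.18% with IgG, and 1.14% and 1.13% for input. Their median level over the 6 libraries was 31.4 CPM, against 34.1 CPM for the 12053 genes tested, and the middle 50% of them lay between 19.6 and 59.1 CPM. The highest was Zfp644, with 692 and 744 CPM for the IGF2BP1 antibody, 575 and 592 CPM for IgG and 512 and 493 CPM for input. Zfp207, which encodes the mitotic spindle factor BuGZ, came next with 511 and 567 CPM for the IGF2BP1 antibody, 454 and 311 CPM for IgG and 352 and 331 CPM for input. Zfp292, Zfp106 and Zfp217 followed, with means over the 6 libraries of 413, 372 and 349 CPM. CPM is scaled within each library and not by transcript length, so it orders fragments, not molecules, and a higher level in a RIP library means a larger share of that library, not more RNA in total.

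**Figure D1:**
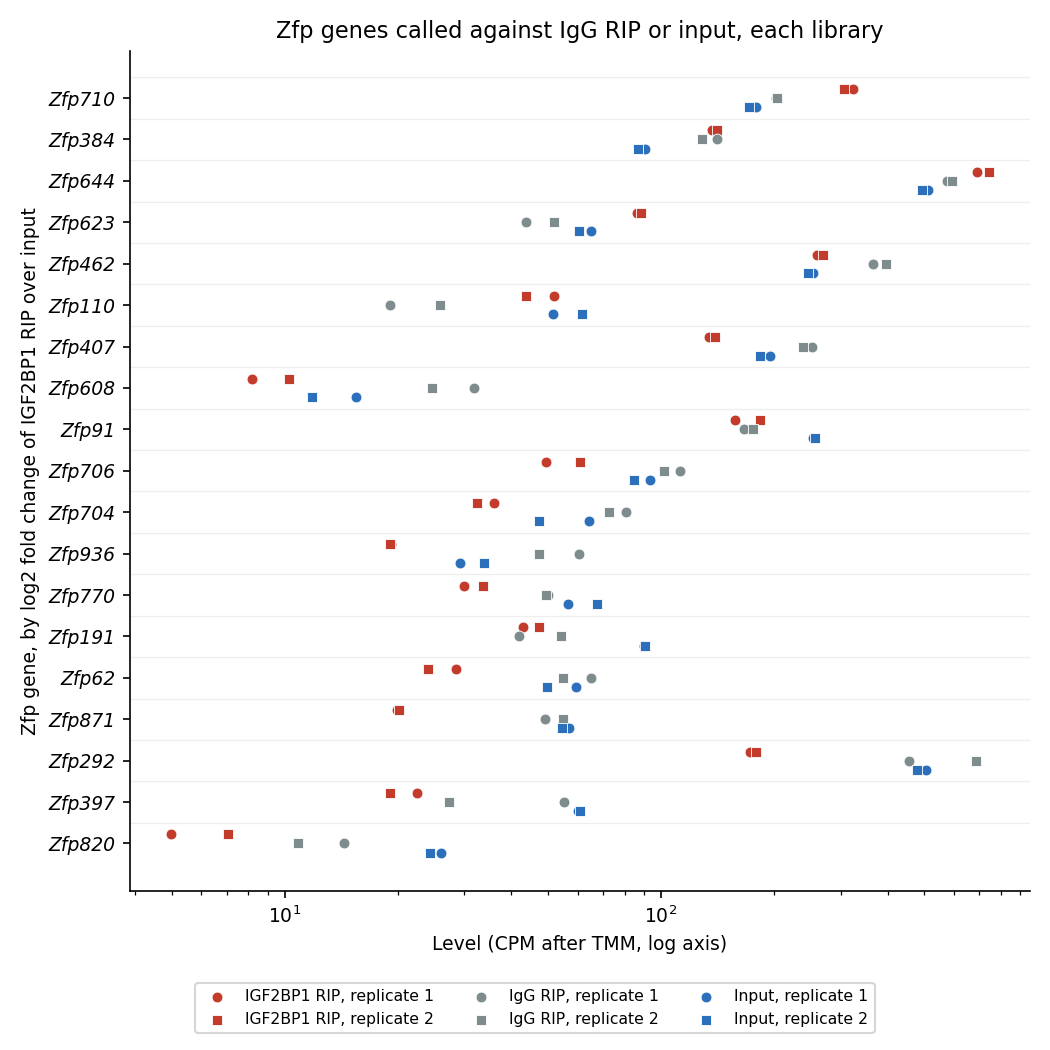
Level of each of the 19 Zfp genes called in IGF2BP1 RIP against IgG RIP or against input, in CPM on a log axis, with 1 point per library (circle, replicate 1; square, replicate 2). The genes run from the highest to the lowest log2 fold change of IGF2BP1 RIP over input. In Zfp710 both IGF2BP1 RIP points (red) lie right of all others, while in Zfp292, Zfp871, Zfp407 and Zfp62 they lie left of all others.

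The first comparison asks which Zfp transcripts came down with the IGF2BP1 antibody beyond what a non-specific IgG brought. Of the 186 Zfp genes, the IGF2BP1 antibody gave 3 that were higher and 9 that were lower than with IgG (edgeR quasi-likelihood test on all 6 libraries, Benjamini-Hochberg adjusted p under 0.05). Over all genes tested, 3.29% were called higher and 3.78% lower. The Zfp genes called in either direction were 6.45% of the set, near the 7.07% over all genes. Their median log2 fold change was -0.11, with 50% of them between -0.51 and 0.21, against a median of -0.014 over all genes tested.

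Zfp710 was the Zfp gene that rose in IGF2BP1 RIP against IgG RIP and against input alike. It had 325 and 307 CPM in the IGF2BP1 RIP libraries, against 202 and 203 CPM in the IgG RIP libraries and 179 and 171 CPM in the input libraries. Both IGF2BP1 RIP libraries lay above the other 4, and the libraries of each group were close to each other. Its log2 fold change over IgG RIP was 0.64 ± 0.095 (SE), adjusted p = 0.0118, by edgeR, and over input it was 0.85 ± 0.097 (SE), adjusted p = 0.00499. With the IGF2BP1 and IgG libraries alone in the edgeR fit, its adjusted p was 0.0643, above the threshold. The gene lies on chromosome 7, 80024814 to 80094173 (GRCm38). Its promoter is shown as the 300 bases around the start of the gene (RefSeq, GRCm38.p6, chr7:80024564-80024863, plus strand, 250 bases before the start to 50 after), with each CG dinucleotide in capitals, because the gene is the one Zfp gene called higher in both comparisons. It holds 4 CG dinucleotides.
Zfp710: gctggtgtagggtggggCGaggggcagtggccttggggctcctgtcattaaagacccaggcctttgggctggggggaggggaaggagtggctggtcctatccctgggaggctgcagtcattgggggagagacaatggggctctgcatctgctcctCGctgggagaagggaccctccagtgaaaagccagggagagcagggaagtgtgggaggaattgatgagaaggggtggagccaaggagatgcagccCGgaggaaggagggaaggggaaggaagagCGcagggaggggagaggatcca

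The other Zfp genes called higher than in IgG RIP were Zfp623 and Zfp110. Zfp623 had 86.1 and 88.6 CPM in the IGF2BP1 RIP libraries, against 43.8 and 52.0 CPM in the IgG RIP libraries and 65.1 and 60.4 CPM in the input libraries. Its IGF2BP1 RIP libraries lay above the other 4, with a log2 fold change over IgG RIP of 0.87 ± 0.18 (SE), adjusted p = 0.0346 (edgeR). Over input it was 0.48 ± 0.18 (SE), adjusted p = 0.191, which did not pass. Zfp110 encodes the neurotrophin receptor-interacting factor NRIF, which binds the p75 neurotrophin receptor. It had 51.9 and 43.8 CPM in the IGF2BP1 RIP libraries, against 19.0 and 25.8 CPM in the IgG RIP libraries and 51.5 and 61.6 CPM in the input libraries. Its IGF2BP1 RIP libraries overlapped with input, and the IgG RIP libraries were the low ones: the log2 fold change over IgG RIP was 1.09 ± 0.26 (SE), adjusted p = 0.0482, and over input -0.24 ± 0.25 (SE), adjusted p = 0.672 (edgeR). On centred FPKM its log2 fold change over IgG RIP was 0.13 (adjusted p = 0.807, limma). IgG RIP itself was lower than input for Zfp110, with a log2 fold change of -1.33 ± 0.26 (SE), adjusted p = 0.0238 (edgeR), which was -0.47 on centred FPKM (adjusted p = 0.326, limma).

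The lower side was led by Zfp292, a large nuclear zinc finger protein whose human counterpart is a gene of neurodevelopmental disorder. It had 173 and 179 CPM in the IGF2BP1 RIP libraries, against 455 and 689 CPM in the IgG RIP libraries and 505 and 479.8 CPM in the input libraries. The IGF2BP1 RIP libraries were below every other library, although the IgG RIP libraries were far apart from each other. On the log2 scale it changed by -1.70 ± 0.18 (SE), adjusted p = 0.00405 over IgG RIP and -1.49 ± 0.18 (SE), adjusted p = 0.00622 over input (edgeR). It is 1 of 2 Zfp genes that also passed with the IGF2BP1 and IgG libraries alone in the edgeR fit, at an adjusted p of 0.0308. The gene lies on chromosome 4, 34803113 to 34882960 (GRCm38). Its promoter is shown for contrast with that of Zfp710 (RefSeq, GRCm38.p6, chr4:34882899-34883198, minus strand, CG dinucleotides in capitals). The start that places this window differs slightly from the gene end given above. The window holds 30 CG dinucleotides, and nothing about the pull-down is read from these promoters.
Zfp292: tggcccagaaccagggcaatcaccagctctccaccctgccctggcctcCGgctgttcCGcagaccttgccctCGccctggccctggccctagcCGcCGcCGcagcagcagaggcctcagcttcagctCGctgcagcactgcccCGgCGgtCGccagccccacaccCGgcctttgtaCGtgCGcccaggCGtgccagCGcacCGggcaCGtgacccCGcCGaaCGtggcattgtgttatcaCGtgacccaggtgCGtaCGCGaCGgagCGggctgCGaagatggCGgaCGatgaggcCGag

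Zfp407 was the other gene that passed with the 2 groups alone. It had 134 and 139 CPM in the IGF2BP1 RIP libraries, against 252 and 238 CPM in the IgG RIP libraries and 195 and 183 CPM in the input libraries. Here the libraries of each group were close together, with IGF2BP1 RIP lowest and IgG RIP highest. Zfp407 changed by -0.84 ± 0.10 (SE), adjusted p = 0.00615 (log2) over IgG RIP (adjusted p = 0.0441 with the 2 groups alone) and -0.47 ± 0.11 (SE), adjusted p = 0.0484 over input (edgeR). Zfp871 had 19.9 and 20.1 CPM in the IGF2BP1 RIP libraries, against 49.3 and 54.9 CPM in the IgG RIP libraries and 57.1 and 54.5 CPM in the input libraries. Zfp62 had 28.5 and 24.0 CPM in the IGF2BP1 RIP libraries, against 65.2 and 54.9 CPM in the IgG RIP libraries and 59.5 and 49.8 CPM in the input libraries. In both genes the IGF2BP1 RIP libraries were lowest and the IgG RIP and input libraries overlapped. In log2 fold change, Zfp871 had -1.38 ± 0.22 (SE), adjusted p = 0.0145 over IgG RIP and -1.48 ± 0.22 (SE), adjusted p = 0.0120 over input, and Zfp62 had -1.19 ± 0.23 (SE), adjusted p = 0.0265 over IgG RIP and -1.06 ± 0.23 (SE), adjusted p = 0.0436 over input (edgeR). On the deposited FPKM, centred on the median gene of each library, the log2 fold change of Zfp62 was -0.26 over IgG RIP (adjusted p = 0.638) and -0.21 over input (adjusted p = 0.781) by limma. The call of Zfp407 against input was lost under DESeq2 (adjusted p = 0.0789), with no filter (0.0858) and with the deposited counts rounded as they stand (0.0544), and that of Zfp62 with no filter (0.0659). On all 6 libraries edgeR called Zfp292, Zfp407, Zfp871 and Zfp62 lower in IGF2BP1 RIP against both other groups, and these comparisons share the IGF2BP1 RIP libraries.

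The remaining 5 genes called lower than in IgG RIP were not called against input. Zfp462, which in mouse embryonic stem cells keeps heterochromatin through the methyltransferases G9a and GLP, had 260.4 and 269 CPM in the IGF2BP1 RIP libraries, against 366 and 395 CPM in the IgG RIP libraries and 253 and 245 CPM in the input libraries. Its IGF2BP1 RIP libraries were slightly above input, and the IgG RIP libraries were the high ones. The log2 fold change over IgG RIP was -0.52 ± 0.091 (SE), adjusted p = 0.0202, while that of IgG RIP over input was 0.61 ± 0.092 (SE), adjusted p = 0.0116 (edgeR). On the deposited FPKM, centred on the median gene of each library, its direction turned, with a log2 fold change over IgG RIP of 0.16. Zfp608, known in mouse thymocytes as a repressor of the Rag genes, had 8.18 and 10.2 CPM in the IGF2BP1 RIP libraries, against 31.8 and 24.7 CPM in the IgG RIP libraries and 15.5 and 11.8 CPM in the input libraries. Zfp936 had 19.2 and 19.1 CPM in the IGF2BP1 RIP libraries, against 60.5 and 47.5 CPM in the IgG RIP libraries and 29.1 and 33.8 CPM in the input libraries. Both were lowest in IGF2BP1 RIP and highest in IgG RIP, with log2 fold changes over IgG RIP of -1.61 ± 0.38 (SE), adjusted p = 0.0479 for Zfp608, and of -1.49 ± 0.25 (SE), adjusted p = 0.0192 for Zfp936 (edgeR). On centred FPKM that of Zfp608 was -1.01 (adjusted p = 0.101, limma). Zfp704 had 35.9 and 32.5 CPM in the IGF2BP1 RIP libraries, against 80.7 and 72.9 CPM in the IgG RIP libraries and 64.5 and 47.4 CPM in the input libraries, a log2 fold change over IgG RIP of -1.17 ± 0.22 (SE), adjusted p = 0.0262 (edgeR). Zfp706, a small protein that promotes the exit of mouse embryonic stem cells from self-renewal, had 49.4 and 61.1 CPM in the IGF2BP1 RIP libraries, against 112 and 102 CPM in the IgG RIP libraries and 93.6 and 84.7 CPM in the input libraries. Its log2 fold change over IgG RIP was -0.95 ± 0.18 (SE), adjusted p = 0.0250 (edgeR), but its interval in the table is shared with 4 other genes, so its counts may not be its own.

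The calls against IgG RIP depended on which libraries entered the fit. With the 2 groups alone in the fit, edgeR called none of the Zfp genes higher and 2 lower, against 0.317% higher and 0.916% lower over all genes. When IgG RIP replicate 1 was left out it called 34 higher and 52 lower (24.7% and 22.2% over all genes), and without replicate 2 it called 34 higher and 41 lower (23.2% and 21.3%). Without any test, 33 Zfp genes had both IGF2BP1 RIP libraries above both IgG RIP libraries and 58 had both below, where all genes gave 27.4% and 24.7%. At an unadjusted p under 0.05, 19 Zfp genes were higher and 33 lower, where all genes gave 12.3% and 13.0%. The calls of Zfp623, Zfp110 and Zfp608 were also lost under DESeq2, with adjusted p-values of 0.0688, 0.0806 and 0.0824, and those of Zfp110 (0.0617) and Zfp608 (0.0720) with no filter on low counts in the edgeR fit.

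**Figure D2:**
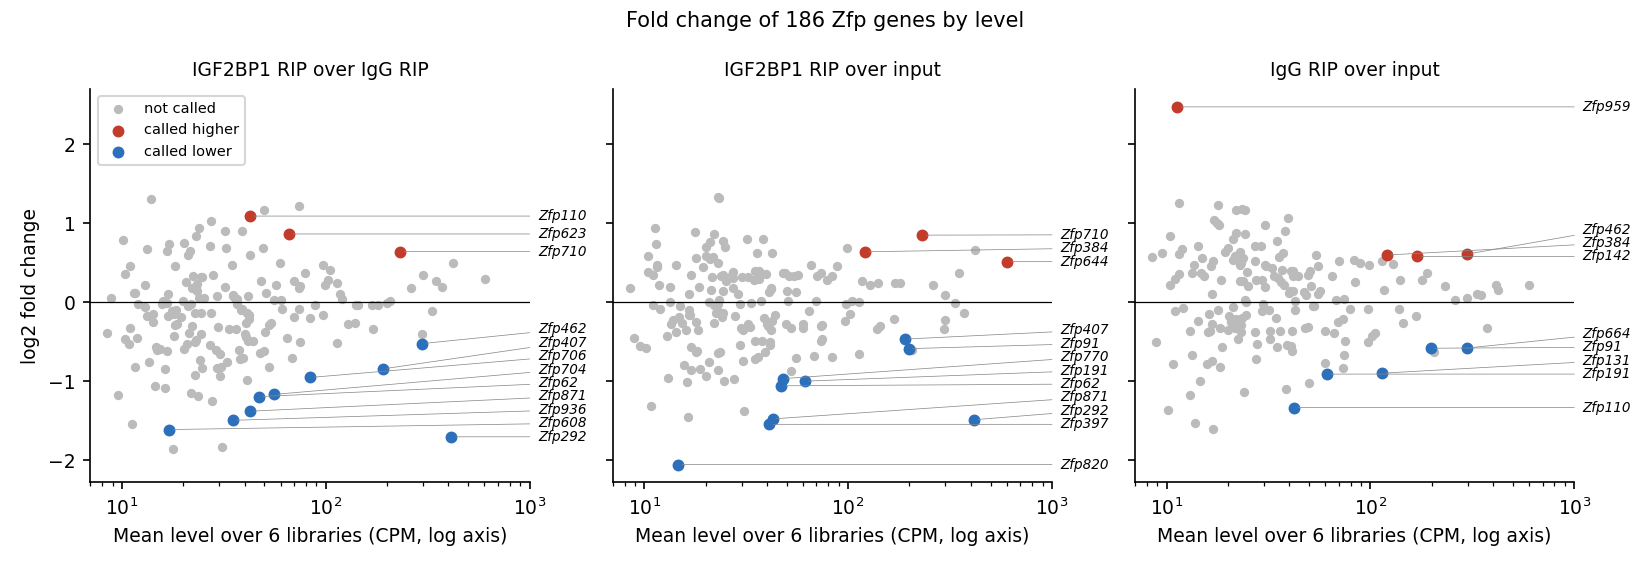
Log2 fold change of each of the 186 Zfp genes against its mean level over the 6 libraries (CPM, log axis), in the 3 comparisons. Red and blue points are genes called higher and lower by edgeR on all 6 libraries, and named; the called genes lie at all levels between Zfp959 at 11.3 CPM and Zfp644 at 601 CPM.

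Against the input RNA, IGF2BP1 RIP had 3 Zfp genes higher and 9 lower in the edgeR test on all 6 libraries, where 2.21% and 3.76% of all genes were called. The median log2 fold change of the Zfp genes was -0.032, against 0.0012 over all genes. These libraries repeated closely, and with the IGF2BP1 RIP and input libraries alone in the fit, edgeR called 23 Zfp genes higher and 40 lower. That was 33.9% of the Zfp genes, and 36.1% of all genes were called in that fit (17.0% higher and 19.1% lower). Both IGF2BP1 RIP libraries lay above both input libraries in 65 Zfp genes and below them in 72, where all genes gave 33.5% and 33.4%. At an unadjusted p under 0.05, 13 were higher and 24 lower on all 6 libraries (9.67% and 11.1% over all genes). Leaving out any 1 IGF2BP1 RIP or input library from the 6 removed every Zfp call against input. Without IgG RIP replicate 1, 25 were higher and 39 lower (16.8% and 17.2% over all genes), and without replicate 2, 24 were higher and 40 lower (16.2% and 17.9%).

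Besides Zfp710, the genes higher than input were Zfp644 and Zfp384. Zfp644, whose human counterpart helps to bring the histone methyltransferases G9a and GLP to chromatin, had 692 and 744 CPM in the IGF2BP1 RIP libraries, against 575 and 592 CPM in the IgG RIP libraries and 512 and 493 CPM in the input libraries. The 3 groups did not overlap, and the log2 fold change over input was 0.52 ± 0.078 (SE), adjusted p = 0.0132, and over IgG RIP 0.30 ± 0.077 (SE), adjusted p = 0.0629 (edgeR). Its interval is shared with the predicted gene Gm17304. Zfp384, a nuclear matrix transcription factor, had 136 and 141 CPM in the IGF2BP1 RIP libraries, against 140.5 and 129 CPM in the IgG RIP libraries and 90.5 and 87.1 CPM in the input libraries. Here both kinds of RIP lay above input and overlapped each other: the log2 fold change over input was 0.64 ± 0.13 (SE), adjusted p = 0.0350 for IGF2BP1 RIP and 0.60 ± 0.13 (SE), adjusted p = 0.0346 for IgG RIP (edgeR). The interval of Zfp384 is shared with Acrbp and Ing4.

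Of the 9 genes lower than input, Zfp292, Zfp871, Zfp62 and Zfp407 are given above. Zfp820 had 4.98 and 7.06 CPM in the IGF2BP1 RIP libraries, against 14.4 and 10.8 CPM in the IgG RIP libraries and 26.0 and 24.3 CPM in the input libraries. Over input this gave a log2 fold change of -2.05 ± 0.42 (SE), adjusted p = 0.0350 (edgeR). Zfp397 had 22.4 and 19.1 CPM in the IGF2BP1 RIP libraries, against 55.1 and 27.3 CPM in the IgG RIP libraries and 60.2 and 61.0 CPM in the input libraries, and Zfp770 had 29.9 and 33.5 CPM in the IGF2BP1 RIP libraries, against 50.1 and 49.3 CPM in the IgG RIP libraries and 56.4 and 67.5 CPM in the input libraries. In Zfp820 and Zfp770 the groups fell in the order IGF2BP1 RIP, IgG RIP, input, and the IgG RIP libraries of Zfp397 were far apart. Over input, log2 fold changes were -1.54 ± 0.35 (SE), adjusted p = 0.0487 for Zfp397 and -0.97 ± 0.21 (SE), adjusted p = 0.0441 for Zfp770 (edgeR). With no filter on low counts the calls of Zfp820 (adjusted p = 0.0526), Zfp397 (0.0664) and Zfp770 (0.0698) were lost, and under DESeq2 that of Zfp770 (0.0562). Zfp191, which is needed for myelination in mice, had 43.0 and 47.3 CPM in the IGF2BP1 RIP libraries, against 41.9 and 54.2 CPM in the IgG RIP libraries and 89.9 and 90.6 CPM in the input libraries. Zfp91, a ubiquitin ligase of the non-canonical NF-kappaB pathway, had 157 and 183 CPM in the IGF2BP1 RIP libraries, against 166 and 176 CPM in the IgG RIP libraries and 254 and 257 CPM in the input libraries. Both RIP groups were below input in these 2 genes and overlapped each other. The log2 fold change of IGF2BP1 RIP over input was -0.998 ± 0.20 (SE), adjusted p = 0.0341 for Zfp191 and -0.59 ± 0.12 (SE), adjusted p = 0.0302 for Zfp91, and that of IgG RIP over input was -0.91 ± 0.20 (SE), adjusted p = 0.0364 for Zfp191 and -0.58 ± 0.12 (SE), adjusted p = 0.0252 for Zfp91 (edgeR). The interval of Zfp91 is shared with Cntf.

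The IgG RIP libraries measure what a pull-down brings without the specific antibody. Against input they had 4 Zfp genes higher and 5 lower (4.19% and 4.90% over all genes), and none in either direction with the 2 groups alone in the edgeR fit (1.09% and 1.20% over all genes). The unadjusted p was under 0.05 for 21 higher and 20 lower, where all genes gave 12.8% and 13.7%. Under DESeq2 the calls of Zfp384 (adjusted p = 0.0706) and Zfp191 (0.0547) were lost, and with no filter that of Zfp664 (0.0559). Without IgG RIP replicate 1, edgeR on the other 5 libraries called 43 higher and 33 lower (21.5% and 24.9% over all genes), and without replicate 2 it called 34 higher and 37 lower (19.7% and 23.7%). Both IgG RIP libraries lay above both input libraries in 57 Zfp genes and below them in 44, where all genes gave 25.3% and 28.5%. The median log2 fold change of the Zfp genes was 0.13, against -0.0024 over all genes. It was 0.19 for Zbtb, 0.18 for Zc3h, 0.031 for Klf and Sp, and -0.18 for Zscan and Zkscan genes, so it is not particular to the Zfp genes. The input libraries were shallower, so the choice by counts could also favour genes low in input. Its part in this median was not tested. Zfp384, Zfp462, Zfp91, Zfp191 and Zfp110 are among the called genes. Zfp959 had 17.5 and 26.9 CPM in IgG RIP, against 4.96 and 2.96 CPM in input, and 7.11 and 8.12 CPM in IGF2BP1 RIP. Its log2 fold change of IgG RIP over input was 2.47 ± 0.52 (SE), adjusted p = 0.0309 (edgeR), but it entered the set through the RIP libraries alone, since neither input library reached a count of 20, and so the choice of genes itself favoured a low input level. On centred FPKM its log2 fold change was 1.70 (adjusted p = 0.0767, limma). Zfp142 had 202 and 213 CPM in IgG RIP, against 136 and 141 CPM in input, with a log2 fold change of 0.58 ± 0.11 (SE), adjusted p = 0.0208 (edgeR), and shares its interval with 4 genes. Zfp664 and Zfp131 were lower in IgG RIP, with 215 and 262 CPM in IgG RIP against 332 and 378 CPM in input for Zfp664, and 71.4 and 97.2 CPM in IgG RIP against 149 and 165 CPM in input for Zfp131. Their log2 fold changes were -0.58 ± 0.13 (SE), adjusted p = 0.0408 for Zfp664 and -0.90 ± 0.18 (SE), adjusted p = 0.0262 for Zfp131 (edgeR).

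**Figure D3:**
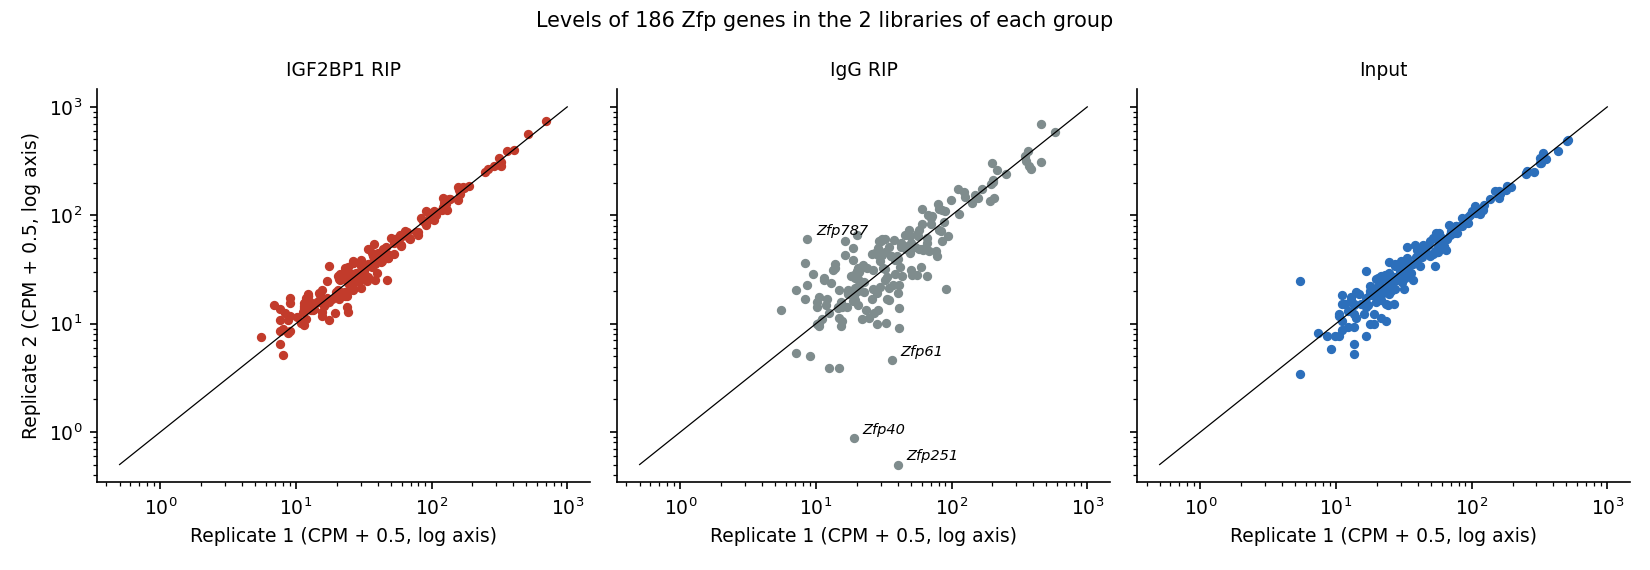
Level of the 186 Zfp genes in replicate 2 against replicate 1 of each group, in CPM with a small constant added, both axes logarithmic; the line marks equal levels. The points of IGF2BP1 RIP and input follow the line, and those of IgG RIP scatter widely, with Zfp251, Zfp40, Zfp61 and Zfp787 far from it.

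The replicates of the Zfp genes themselves show the same unequal spread. Their biological coefficient of variation was 6.23% in IGF2BP1 RIP, 39.3% in IgG RIP and 1.48% in input. The 2 libraries of a group differed at least 2-fold in 1 Zfp gene in IGF2BP1 RIP, 37 in IgG RIP and 5 in input, and at least 4-fold in 0, 8 and 1, by the ratio of CPM. In IgG RIP the 37 genes were 19.9% of the set, against 28.2% of all genes tested. Zfp251 had 102 fragments in IgG RIP replicate 1 and 0 in replicate 2, and Zfp40 had 48 and 1. Zfp61 had 93 and 11, and Zfp787 went the other way with 21 and 159. The higher library was replicate 1 in some of these genes and replicate 2 in others. Whether 1 of the 2 IgG RIP libraries is the deviant one was not tested. Of the 186 genes, 19 had both IGF2BP1 RIP libraries above the other 4 libraries and 32 had both below (13.9% and 12.9% of all genes). The IgG RIP libraries lay beyond the other 4 in 35 and 21 Zfp genes (14.5% above and 16.4% below over all genes), and the input libraries in 28 and 28 (16.3% and 14.3%).

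**Figure D4:**
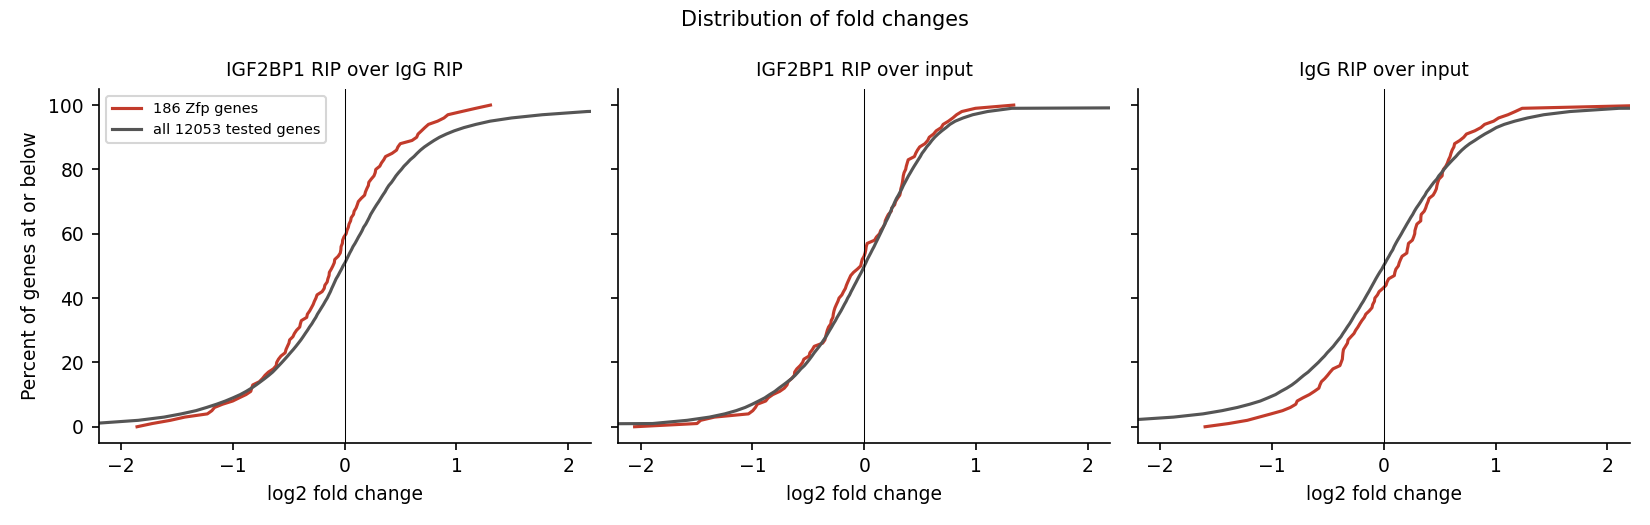
Share of genes (percent, vertical axis) with a log2 fold change at or below the value on the horizontal axis, for the 186 Zfp genes (red) and all 12053 tested genes (grey), in the 3 comparisons, without the extremes beyond the axis. The curves nearly coincide in IGF2BP1 RIP over input (medians -0.032 and 0.0012), while around its middle the Zfp curve lies left of the other in IGF2BP1 RIP over IgG RIP (medians -0.11 and -0.014) and right of it in IgG RIP over input (0.13 and -0.0024).

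The roles known for some of the genes divide them into groups. Those of 4 or more genes each held fold changes of both signs in every comparison. The 4 genes of imprinting and retroelement silencing gave no call in any comparison. Over all genes, 3.29% were called higher and 3.78% lower against IgG RIP, and 2.21% and 3.76% against input. In IgG RIP against input the shares were 4.19% and 4.90%. These shares stand beside every role group below, and at such shares no result is read from counts in so few genes. Zfp57, which guards DNA methylation at imprinted regions, had 13.2 and 13.1 CPM in the IGF2BP1 RIP libraries, against 7.76 and 16.4 CPM in the IgG RIP libraries and 10.5 and 8.29 CPM in the input libraries. Zfp445, which shares that task, had 20.6 and 19.1 CPM in the IGF2BP1 RIP libraries, against 38.0 and 38.1 CPM in the IgG RIP libraries and 31.6 and 34.9 CPM in the input libraries. Zfp57 was low everywhere, and Zfp445 was lowest in IGF2BP1 RIP without overlap. For Zfp445 the log2 fold change was -0.94 ± 0.25 (SE), adjusted p = 0.0672 over IgG RIP and -0.74 ± 0.25 (SE), adjusted p = 0.147 over input (edgeR), and with the IGF2BP1 RIP and input libraries alone its adjusted p was 0.0110. Zfp568, which in mouse represses a placental Igf2 transcript, had 67.6 and 61.1 CPM in the IGF2BP1 RIP libraries, against 45.0 and 65.8 CPM in the IgG RIP libraries and 55.8 and 45.0 CPM in the input libraries. Its IGF2BP1 RIP libraries lay above input and overlapped with IgG RIP, and its log2 fold change over input was 0.35 ± 0.25 (SE), adjusted p = 0.503 (edgeR).

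Among the 7 genes of pluripotency and the germ line, Zfp462 was the 1 called gene. Zfp42 (Rex1), a marker of naive pluripotent cells, had 28.1 and 25.4 CPM in the IGF2BP1 RIP libraries, against 21.3 and 10.5 CPM in the IgG RIP libraries and 17.4 and 18.4 CPM in the input libraries. Its IGF2BP1 RIP libraries were the highest, but its log2 fold change was 0.75 ± 0.40 (SE), adjusted p = 0.298 over IgG RIP and 0.58 ± 0.41 (SE), adjusted p = 0.502 over input (edgeR). Zfp37, first known from the testis, had 15.6 and 14.1 CPM in the IGF2BP1 RIP libraries, against 5.04 and 12.7 CPM in the IgG RIP libraries and 30.4 and 23.7 CPM in the input libraries. Its input libraries were the high ones, and with IGF2BP1 RIP and input alone in the fit its adjusted p was 0.0110, against 0.378 in all 6 libraries (edgeR). Zfp318, a nuclear protein of the testis, differed little, with 312 and 336 CPM in the IGF2BP1 RIP libraries, against 348 and 352 CPM in the IgG RIP libraries and 316 and 333 CPM in the input libraries.

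The 20 genes of chromatin complexes and transcription held Zfp644 and Zfp384 on the higher side and Zfp292 and Zfp91 on the lower side against input. With those groups alone in the edgeR fit, 7 of the 20 were higher and 4 lower than input, where all genes gave 17.0% and 19.1%. The median log2 fold change of the 20 over input was 0.30 in IGF2BP1 RIP and 0.34 in IgG RIP, against 0.0012 and -0.0024 over all genes. Values in IGF2BP1 RIP over input ran from -1.49 to 0.69. Over IgG RIP the median was -0.035. Zfp217, a partner of the CoREST complex, had 403 and 403 CPM in the IGF2BP1 RIP libraries, against 353 and 314 CPM in the IgG RIP libraries and 320.0 and 303 CPM in the input libraries, with IGF2BP1 RIP above all others. Over input it had a log2 fold change of 0.37 ± 0.095 (SE), adjusted p = 0.0695 (edgeR). Zfp410, which activates the NuRD subunit gene Chd4, had 38.8 and 39.9 CPM in the IGF2BP1 RIP libraries, against 46.2 and 47.8 CPM in the IgG RIP libraries and 36.6 and 34.9 CPM in the input libraries, and Zfp609, which works with cohesin loading factors, had 287 and 284 CPM in the IGF2BP1 RIP libraries, against 197 and 305 CPM in the IgG RIP libraries and 252 and 239.9 CPM in the input libraries. Neither passed in any comparison on all 6 libraries. Over input the log2 fold change of Zfp410 was 0.14 and that of Zfp609 0.22.

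Of the 7 genes of RNA and ribosome factors, Zfp706 was called, lower than in IgG RIP. Zfp598, the ubiquitin ligase that marks collided ribosomes, had 103 and 90.0 CPM in the IGF2BP1 RIP libraries, against 89.2 and 109 CPM in the IgG RIP libraries and 73.2 and 67.5 CPM in the input libraries. Zfp346, a protein that binds double-stranded RNA, had 46.9 and 39.9 CPM in the IGF2BP1 RIP libraries, against 48.9 and 44.1 CPM in the IgG RIP libraries and 23.6 and 26.1 CPM in the input libraries. In both genes the RIP groups overlapped each other and lay above input. The log2 fold change of IGF2BP1 RIP over input was 0.46 ± 0.18 (SE), adjusted p = 0.197 for Zfp598 and 0.81 ± 0.24 (SE), adjusted p = 0.1001 for Zfp346 (edgeR), and the interval of Zfp346 is shared with another gene. Zfp207 had the levels given above and a log2 fold change of 0.66 ± 0.17 (SE), adjusted p = 0.0699 over input (edgeR), with an adjusted p of 2.77e-07 once the IGF2BP1 RIP and input libraries were fitted alone. Zfp369 (NRIF2), the close relative of Zfp110, had 22.4 and 19.1 CPM in the IGF2BP1 RIP libraries, against 41.1 and 32.9 CPM in the IgG RIP libraries and 29.1 and 31.4 CPM in the input libraries, and its log2 fold change over IgG RIP was -0.83 ± 0.27 (SE), adjusted p = 0.111 (edgeR), where that of Zfp110 was 1.09. The difference between these relatives was not tested.

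The co-repressors of KRAB zinc fingers were followed in a list that also holds general chromatin and DNA methylation genes such as Atrx and Uhrf1. Of 36 tested genes, 1 was higher and 1 lower than in IgG RIP (3.29% and 3.78% over all genes), with a median log2 fold change of 0.081. Uhrf1, which guides maintenance methylation, had 415 and 416 CPM in the IGF2BP1 RIP libraries, against 298 and 277 CPM in the IgG RIP libraries and 309 and 346 CPM in the input libraries, with 0.53 ± 0.095 (SE), adjusted p = 0.0228 over IgG RIP (log2, edgeR). Rbbp4, the gene called lower, had a log2 fold change of -0.46 over IgG RIP, and its interval is shared. Against input, 4 were higher and 3 lower (2.21% and 3.76% over all genes), with a median of 0.18. Trim28 had 424 and 381 CPM in the IGF2BP1 RIP libraries, against 392 and 407 CPM in the IgG RIP libraries and 299 and 252 CPM in the input libraries, and Setdb1 had 207 and 194 CPM in the IGF2BP1 RIP libraries, against 211 and 179 CPM in the IgG RIP libraries and 127 and 125 CPM in the input libraries. For both, the RIP groups overlapped each other above input. The log2 fold change of IGF2BP1 RIP over input was 0.55 ± 0.11 (SE), adjusted p = 0.0345 for Trim28 and 0.67 ± 0.13 (SE), adjusted p = 0.0249 for Setdb1 (edgeR). IgG RIP over input gave 0.54 for Trim28 and 0.63 for Setdb1, both called, and the interval of Setdb1 is shared with another gene. The 3 genes lower than input went the other way. Cbx5, whose interval is shared, had a log2 fold change of -0.65 ± 0.088 (SE), adjusted p = 0.00863 (edgeR). Hells had -0.35 and Atrx -0.96. IgG RIP against input called 5 of the 36 higher and 4 lower (4.19% and 4.90% over all genes), with a median of 0.13. The 4 lower were Cbx5 (-0.44), Cbx1 (-0.97), Hells (-0.43) and Cbx3 (-0.64).

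Other zinc finger families gave 0 to 4 calls in each direction. Against IgG RIP, where 3.29% of all genes were called higher and 3.78% lower, none of 38 Zbtb genes was called higher and 3 lower, none of 20 Zscan and Zkscan genes higher and 1 lower, 2 of 21 Klf and Sp genes higher and none lower, and 1 of 18 Zc3h genes higher and 1 lower. Their median log2 fold changes were -0.18 for Zbtb, 0.038 for Zscan and Zkscan, -0.12 for Klf and Sp, and -0.13 for Zc3h genes, beside the -0.11 of the Zfp genes. Against input, where 2.21% of all genes were called higher and 3.76% lower, none of these genes was called higher, and 4 Zbtb genes, 1 Zscan or Zkscan gene, 1 Klf or Sp gene and 1 Zc3h gene were lower (edgeR on all 6 libraries). The medians against input were -0.014 for Zbtb, -0.0040 for Zscan and Zkscan, 0.11 for Klf and Sp, and -0.043 for Zc3h genes. The Klf and Sp list was drawn by name and includes Sp100, Sp110 and Sp140, which are not of the Sp zinc finger family. Their log2 fold changes over IgG RIP were -2.31, -1.46 and -0.66, none called, and the Klf and Sp medians include them. No test between the families was made, and all these comparisons use the same libraries.

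The Zfp genes were grouped along the genome. Chromosome 7 held 41 of them and chromosome 17 held 27, and 82 of the 186 lay within 200 kb of another member. The 7 runs of at least 4 neighbours include 11 genes on chromosome 17 (21383748 to 22456689, GRCm38), with a median log2 fold change of -0.28 over input and values between -2.05 (Zfp820) and 0.50. Another run holds 10 genes on chromosome 7 (29768552 to 30169727), with a median of -0.11 over input and values between -0.87 and 0.35. All 7 runs held fold changes of both signs over IgG RIP. Over input, 6 of the 7 did, and the exception was a run of 4 genes around Zfp871 on chromosome 17 (32765494 to 33005457), with values of IGF2BP1 RIP over input between -1.48 and -0.030. In IgG RIP over input the exception was a run of 5 genes on chromosome 7 (24081924 to 24301232), with values between 0.22 and 0.61. Of the genes with a near neighbour, 2 were higher and 2 lower than in IgG RIP and 0 higher and 4 lower than input. For the other 104 genes the counts were 1 and 7 against IgG RIP and 3 and 5 against input. Over all genes tested, 3.29% and 3.78% were called against IgG RIP and 2.21% and 3.76% against input. The genes with a near neighbour had a lower median level, 25.9 CPM against 36.4 CPM, and the difference in calls was not tested. Reads of neighbours that are close copies can be assigned to either of them, and how the authors' counting treated such reads is not given in the sources used here. The counts of 42 of the 186 genes come from an interval that the table gives to another gene too.

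The fold change of IGF2BP1 RIP over input differed with transcript length, taken from the ratio of count to FPKM in the deposited table. FPKM is by definition fragments scaled by length and depth, but the totals of the deposited values ran with depth. The Zfp genes were longer than most: with the tested genes cut into 3 equal bins of length, 79 fell in the long bin, 80 in the middle and 27 in the short bin. Their median log2 fold change of IGF2BP1 RIP over input was 0.27 in the short bin, -0.090 in the middle and -0.14 in the long bin, against -0.16, 0.090 and 0.061 for all tested genes in the same order. Over IgG RIP the Zfp medians were alike, at -0.094, -0.11 and -0.11, and in IgG RIP over input they had no order, at 0.38, -0.049 and 0.14. For all tested genes the medians of IgG RIP over input were -0.20, 0.012 and 0.14. Spearman's rho between length and the fold change of IGF2BP1 RIP over input was -0.19 across the 186 Zfp genes and 0.17 across all tested genes. For IgG RIP over input it was -0.054 and 0.21, so over all genes the relation was not particular to the IGF2BP1 antibody. These are descriptions across genes in the same 6 libraries, and genes are not independent replicates. Of the 9 Zfp genes called lower than in IgG RIP, 7 were in the long bin, as were 7 of the 9 called lower than input and 79 of all 186. The matching share over all genes called lower was not computed, so no effect of length is read from these counts.

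The promoters add a feature that the choice did not use. RefSeq gave 179 promoters for 145 of the genes. A promoter of 300 bases held a median of 17 CG dinucleotides in the Zfp genes, 21 in the promoters of all tested genes and 7 in all 32851 promoters of the table. At least 10 were found in 77.7% of the Zfp promoters, against 80.8% for tested genes and 43.5% for all promoters. The letters TATAAA, on either strand, were found in 8.94% of the Zfp promoters, 7.13% of those of tested genes and 13.6% of all. The promoter of Zfp710 with its 4 CG dinucleotides thus lay below the middle 50% of the Zfp genes (10 to 24), and that of Zfp292 with 30 above it. The deposited table gives the term DNA binding to 39.8% of the 186 genes (10.7% of all tested genes) and the term RNA binding to 1 of them, Zfp346.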

How the data were processed

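The 6 libraries were sequenced as 150 bp paired-end reads, per the labels' protocols. FastQC and cutadapt 1.9.3 were run and mm39 is the build named, per the submitters' processing notes. Which aligner and counter made the table is not given in the sources used here. The deposited table gives an estimated count and an FPKM per gene and library. Its intervals overlap GRCm38 for all 184 genes of the set found in RefSeq, so positions are given in GRCm38. In each library nearly all deposited expected counts were whole multiples of 1 factor: 91.9% to 93.0% of values came out whole within 0.01 once that factor was divided out, and the results were rounded to fragments. The planned test assumed raw counts, and it was run on these recovered fragments instead. Totals of the deposited FPKM ran with depth, so FPKM served only for alternatives and for transcript length.

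Genes were filtered (filterByExpr), scaled by TMM and tested with edgeR 4.0.16 (R 4.3.3, quasi-likelihood, 1 term per group, all 6 libraries, 3 residual degrees of freedom), with Benjamini-Hochberg adjustment over 12053 genes. The test was also run on simulated counts in which all genes of a group shared the same spread. That setting is simpler than these data, so it does not show how reliable the calls here are. The 3 groups share 1 estimate of the spread per gene. Taken over all genes, the spread of IgG RIP was far wider than that of IGF2BP1 RIP and input, though not in every gene. Counts of calls are therefore given beside those of fits on the 2 groups compared. The precision of a level is limited by 2 libraries a group and by fragments: the median gene of the set had 80.8 fragments in IGF2BP1 RIP, 90.2 in IgG RIP and 50.2 in input. DESeq2 1.42.0, limma 3.58.1 on log2 FPKM and other settings were alternatives. Genes were named where called, by level or by known role. The members and lists were chosen with earlier results of these data known. Same-numbered libraries showed almost no shared deviation (correlations of -0.0039, 0.0024 and 0.0095). This cannot exclude that they are paired, since the spread between libraries could hide a shared part. Replicate numbers were therefore not used as pairs in the main test. Protein sequences were not used here.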

Additional observations from a re-analysis of the deposited data

How the results depend on the processing

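The counts of called Zfp genes (3 higher and 9 lower in IGF2BP1 RIP against IgG RIP, 3 and 9 against input, and 4 and 5 in IgG RIP against input) stayed within 1.5 times under RLE size factors, DESeq2 and rounding of the deposited counts as they stand. Single calls were still lost. Under DESeq2, 3 of 12 were lost in IGF2BP1 RIP against IgG RIP, 2 against input, where Zfp820 had no adjusted p, and 2 of 9 in IgG RIP against input. With the 2 groups alone the counts were 0 higher and 2 lower in IGF2BP1 RIP against IgG RIP, 23 and 40 against input, and 0 and 0 in IgG RIP against input. With no filter on low counts, 4 were lower in IGF2BP1 RIP than in input, where the median log2 fold change was 0.0085. With a stricter filter, 8 were higher in IgG RIP than in input. Without genes that share an interval, 1 was higher in IGF2BP1 RIP than in input, with a median of -0.079 there and of 0.15 in IgG RIP over input. The fragments limit the genes near 20 counts most, and 2 libraries a group limit every test.

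The replicate number as a block gave 2 higher and 8 lower in IGF2BP1 RIP against IgG RIP and 2 and 4 against input. In IgG RIP against input it gave 2 and 3, with a median of 0.10. Whether the numbers pair the libraries is not known. The block also leaves fewer degrees of freedom, so a call lost there need not mean a weaker effect.

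On log2(FPKM + 1) without centring, where FPKM carries the depth of each library, the counts were 0 and 0 in IGF2BP1 RIP against IgG RIP, 43 and 1 against input, and 46 and 0 in IgG RIP against input, with medians of -0.019, 0.67 and 0.74. Centred on the median gene of each library, limma called 0 and 0 in all 3 comparisons with 1 or 0.1 added. With 1 added, the fold changes of Zfp110, Zfp462, Zfp608 and Zfp62 over IgG RIP, of Zfp62 over input, and of Zfp110 and Zfp959 in IgG RIP over input moved by more than 1.5 times. The medians were then -0.059 in IGF2BP1 RIP over input and 0.056 in IgG RIP over input with 1 added, and -0.046 in IGF2BP1 RIP over IgG RIP and 0.054 in IgG RIP over input with 0.1 added. The direction of Zfp462 in IGF2BP1 RIP over IgG RIP turned on FPKM, to 0.20 uncentred and to 0.16 centred with either constant. On uncentred FPKM the sign also turned in IGF2BP1 RIP over input for Zfp91 (0.21), Zfp62 (0.52), Zfp407 (0.42) and Zfp191 (0.0020), and in IgG RIP over input for Zfp91 (0.16), Zfp110 (0.22) and Zfp664 (0.077). The cause was not tested. Of the 186 genes, 95, 83 and 78 kept their sign in every setting in IGF2BP1 RIP over IgG RIP, IGF2BP1 RIP over input and IgG RIP over input, and 97, 144 and 108 when uncentred FPKM is set aside.

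Leaving out 1 library at a time, where the lone library of a group is assumed to vary like the other groups, gave 0 to 34 higher and 0 to 52 lower in IGF2BP1 RIP against IgG RIP, 0 to 25 and 0 to 40 against input, and 0 to 43 and 0 to 37 in IgG RIP against input. The high ends came without an IgG RIP library: without replicate 1 the IgG RIP against input counts were 43 and 33, and without replicate 2 they were 34 and 37. Without either IGF2BP1 RIP library all these counts were 0, and without either input library they were 0 except 2 lower in IGF2BP1 RIP against IgG RIP. The medians ran from -0.17 to -0.065 in IGF2BP1 RIP over IgG RIP, from -0.079 to -0.021 in IGF2BP1 RIP over input and from 0.065 to 0.14 in IgG RIP over input.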
